A study of Drosophila melanogaster with 8 samples.

Results

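The transcripts described here are 55 long noncoding RNAs (lncRNAs, transcripts without a long reading frame) that were well measured in heads of *Drosophila melanogaster*. They are the genes with a FlyBase symbol that starts with lncRNA: and with at least 100 counted reads in each of the 8 libraries. Of 17490 genes counted, 1878 carried such a symbol and 56 of these met the minimum. A set of 6 lncRNA genes was left out beforehand, *roX1*, *roX2*, *CR32368*, *CR43625*, *CR45394* and *CR45395*, and *roX1* was the only one of them that met the minimum. The remaining 55 genes were 2.93% of the lncRNA genes. Members were thus chosen by their read counts in all 8 libraries. The genes just inside it were *CR45332*, *CR44218* and *CR30121*, with 100, 101 and 102 reads in their lowest library, and those just outside were *CR44299*, *CR44978* and *CR43685*, with 99, 97 and 94.

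Heads were taken from *Obp56h*-/- females and males and from females and males of the control, CSB (Canton S-B), the strain in which the deletion had been made. The mutation is a replacement, made by genome editing, of the odorant-binding protein gene *Obp56h* by a cassette that carries a DsRed marker driven by the eye-specific 3XP3 promoter. The deletion was studied in a single line, and flies were 3 to 5 days old. Each of the 4 groups (*Obp56h*-/- females, CSB females, *Obp56h*-/- males and CSB males) had 2 replicates, each a pool of heads from 50 flies, and total RNA was sequenced after removal of ribosomal RNA. The labels do not say that pools of a group came from separate cultures, so p-values measure only the spread between these libraries, which may be technical.

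Some lncRNAs act in the nucleus as scaffolds for RNA-binding proteins, and others are the primary transcripts from which microRNAs (miRNAs, small RNAs that repress messenger RNAs) are cut. *Hsromega* is a heat-inducible RNA that gathers hnRNPs, a family of RNA-binding proteins, into nuclear bodies called omega speckles. *noe* is an abundant RNA of the nervous system, *cherub* is known from neural stem cells and their tumours, and *let7C* is the transcript of the let-7 miRNA complex, which acts in metamorphosis. Most of the other members carry only a CR number.

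The libraries held 10127941 to 25918919 counted reads. *Obp56h* had 1 and 0 reads in *Obp56h*-/- females, against 54 and 90 in CSB females, and 0 and 0 reads in *Obp56h*-/- males, against 110 and 106 in CSB males. In a principal component analysis of all genes tested, the first component (45.8% of the variance) separated replicate 1 of CSB females (61.2) and replicate 1 of CSB males (40.8) from the remaining 6, which scored -25.2 to -4.77. On the 55 lncRNAs alone the same libraries had the highest scores of the first component (1.60 and 2.24, with the other 6 between -1.20 and 0.29). Markers of neurons, glia and photoreceptors were present in every library, so the tissue matched its label. For *noe*, *Hsromega*, *cherub*, *CR34335* and *CR43493*, values with and without CSB replicates numbered 1 are given below.

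Expression levels of the 55 lncRNAs spanned 4 orders of size on a scale that allows for length. This scale is CPM, the count relative to the library's total after TMM scaling, divided by the length of the gene in kb. The highest mean was 14889 CPM per kb in *CR40469* (214 bp), the median over members was 13.0 and the lowest was 1.38 in *CR46003* (21055 bp). In order of level, *CR40469* was followed by *noe* (8481 CPM per kb), *mimi* (1889), *CR34335* (1769), *Hsromega* (446) and *CR42862* (443). The libraries of *mimi* (1652 to 2109 CPM per kb) and *CR34335* (494 to 2490) overlapped, as did those of *Hsromega* (283 to 630.3) and *CR42862* (373 to 497), so the order within these pairs is not beyond the spread between libraries. The lowest library of *CR34335*, replicate 1 of CSB males, also fell within the range of *Hsromega* and *CR42862*. After a gap came *CR45054* (71.8 CPM per kb), *CR44922* (54.2), *CR42549* (45.3) and *CR45102* (45.2). The libraries of *CR44922* (43.1 to 70.01 CPM per kb) overlapped those of the other 3, while *CR45054* (60.5 to 80.4) lay above all libraries of *CR42549* and *CR45102*. In all, 6 members exceeded 100 CPM per kb, 28 lay between 10 and 100, and 21 lay below 10.

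**Figure D1:**
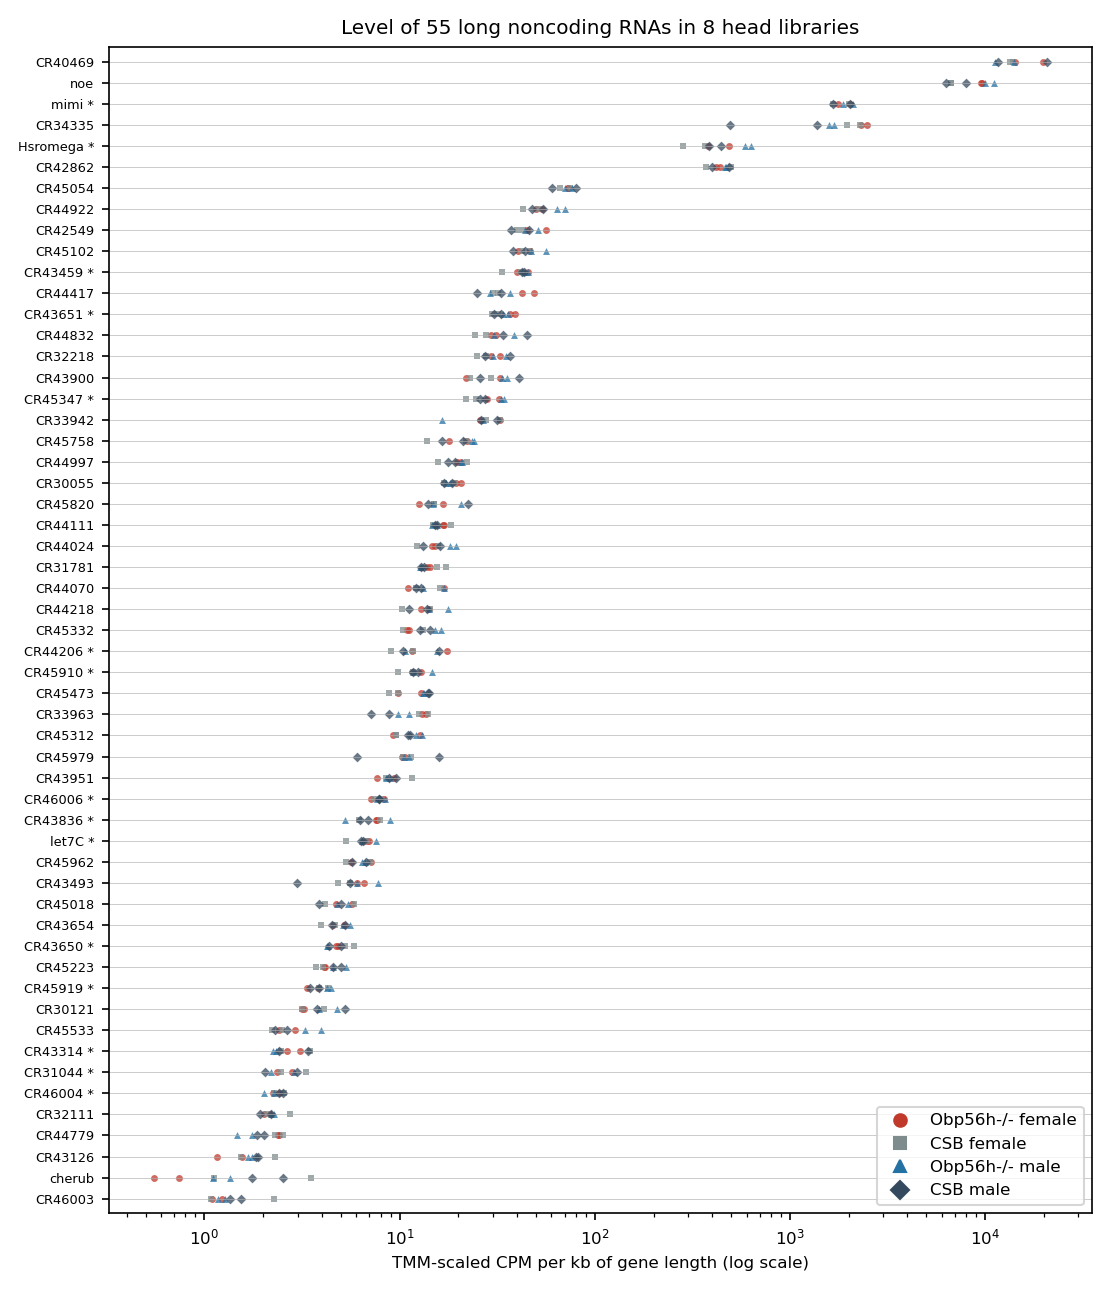
Level of each of the 55 lncRNAs in the 8 libraries, as TMM-scaled CPM per kb of gene length on a log scale, in order of mean level, with a point for each library coloured by sex and genotype and with hosts of miRNA genes marked by an asterisk. The levels run from 1.38 CPM per kb (*CR46003*) to 14889 (*CR40469*), and the points of most members lie close together, with *cherub* and *CR34335* the most widely spread.

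The 6 most highly expressed members took nearly all of the members' reads, between 93.4% and 95.1% in each library, and *noe* and *Hsromega* together took between 56.2% and 70.0%. The 55 lncRNAs held 2.87% and 2.99% of all reads in *Obp56h*-/- females, against 2.55% and 2.49% in CSB females. They held 3.50% and 3.52% in *Obp56h*-/- males, against 2.99% and 2.81% in CSB males. In both sexes the share was higher in both *Obp56h*-/- libraries than in both CSB libraries. *noe* and *Hsromega* also took more of the members' reads there. In females they took 60.9% and 65.2% in *Obp56h*-/- libraries, against 56.2% and 58.8% in CSB libraries. In males they took 70.0% and 69.3%, against 58.5% and 63.1%. The higher share thus leans on these genes and does not describe each member. These 55 genes held between 84.7% and 95.7% of the reads counted on all lncRNA genes.

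Most members varied little over the 8 libraries. The highest level was under 2 times the lowest in 49 members and at least 2 times the lowest in 6, with a median ratio of 1.57, beside 1.44 for the 6722 genes of all kinds with at least 100 reads in every library. The median biological coefficient of variation, edgeR's estimate of the spread between replicates, was 13.1% for members and 11.7% for those genes. *cherub* had the widest range, 6.43 times, followed by *CR34335* (5.04 times), *CR45979* (2.63 times) and *CR43493* (2.61 times). *CR46006*, the host of mir-276a, had the narrowest, 1.18 times, between 72.8 and 86.0 CPM.

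By Ensembl's annotation of BDGP6, 7 members lay on chromosome 2L, 10 on 2R, 12 on 3L, 12 on 3R, 1 on chromosome 4 and 13 on X. Of the 55, 27 overlapped no exon of another gene and lay in no intron, 14 lay within an intron of another gene, 8 shared exon sequence with a gene on the same strand and 6 with a gene on the opposite strand. More than 10% of the exon sequence was shared in 6 members, with the highest share, 35.8%, in *CR45018*, which overlaps *IP3K2*. Whether counting took account of strand is not given in the sources used here, so reads of a member cannot be told apart from reads of such a partner. Lengths ran from 214 to 21710 bp with a median of 2058 bp, and 28 members were a single block of exon.

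Few of these lncRNAs passed the test between *Obp56h*-/- and CSB heads. The 4 groups were fitted in 1 edgeR quasi-likelihood model over 13536 genes, 55 members among them, and p-values were adjusted over all genes by Benjamini-Hochberg, with a threshold of 0.05. In females 1 of 55 members passed, *cherub*, which was lower, where 1.03% of all genes tested and 0.997% of genes with at least 100 reads in every library passed. In males 0 of 55 passed, where 0.502% of all genes and 0.402% of those with at least 100 reads did. At an unadjusted p under 0.05 edgeR found 6 members in females (1455 of the 13536 genes tested and 616 of the 6722 with at least 100 reads) and 11 in males, 10 of them higher (1238 and 531 genes). DESeq2 called 2 members in each sex, a count given without its share over all genes and so no measure of the members. Averaged over the sexes 3 of 55 passed, *noe* and *Hsromega* higher and *cherub* lower in *Obp56h*-/- heads, where 1.93% of all genes and 1.73% of those with at least 100 reads passed.

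The log2 fold changes of members, *Obp56h*-/- over CSB, were small and slightly above 0 in the median. The median was 0.07 in females and 0.08 in males, beside -0.03 and -0.05 over all genes tested and 0.08 and 0.03 over genes with at least 100 reads in every library. In the 1096 lncRNA genes tested, most of them with few reads, the medians were -0.65 in females and -0.43 in males. These medians were not computed without the CSB replicates numbered 1, which stood apart on the first component, so they are no measure of a general fall. Of the 55 members, 51 in females and 49 in males lay within 0.5 of 0. Of the 6722 genes with at least 100 reads in every library, 6487 and 6564 did. The median absolute log2 fold change was 0.16 and 0.17 in members, beside 0.14 and 0.12 in those genes. Both *Obp56h*-/- libraries lay above both CSB libraries in 13 members in females, as in 19.4% of all genes tested and 29.5% of genes with at least 100 reads. They did so in 19 members in males, as in 16.6% of all genes and 24.9% of those with at least 100 reads. Both lay below in 4 members in females (21.9% of all genes, 11.1% of those with at least 100 reads) and 9 in males (24.3% and 14%). The groups did not overlap, in the same direction in both sexes, in 6 members that were higher (7.21% of all genes, 12.3% of those with at least 100 reads) and 3 that were lower (9.45% and 4.12%). These were *noe*, *Hsromega*, *CR34335*, *CR43493*, *CR43651* and *CR45347* above CSB, and *cherub*, *CR31781* and *CR43650* below.

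**Figure D2:**
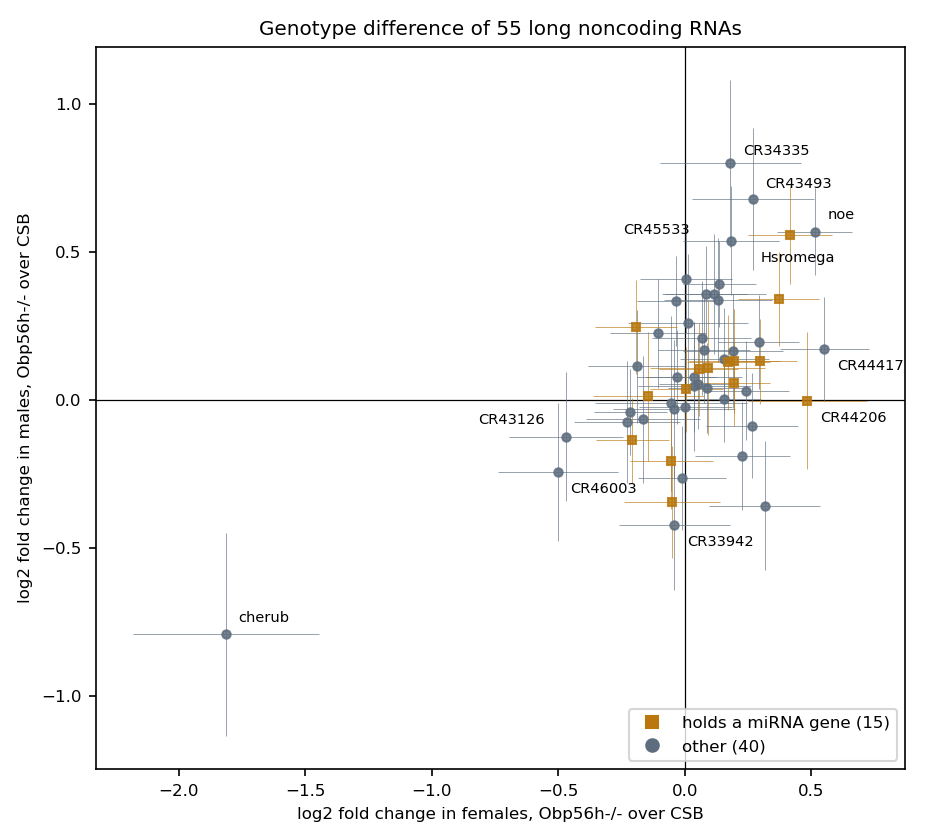
log2 fold change of each of the 55 lncRNAs, *Obp56h*-/- over CSB, in females on the horizontal axis and in males on the vertical axis, with bars of 1 standard error and squares for hosts of miRNA genes. *cherub* stands alone at -1.81 in females and -0.79 in males, *noe* and *Hsromega* lie between 0.42 and 0.57 on both axes, and most others lie within 0.5 of 0.

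*noe* (FBgn0026197, 3L, 17400272 to 17401348, minus strand) had the highest level per kb among the members called between genotypes. It is a single exon of 1077 bp within an intron of *blot*, a transporter gene on the same strand. Its level was 10211 and 10324 CPM in *Obp56h*-/- females, against 7220.4 and 7162 CPM in CSB females. In males it was 11981 and 10812 CPM in *Obp56h*-/- flies, against 6816 and 8544 CPM in CSB flies. All 4 *Obp56h*-/- libraries lay above all 4 CSB libraries. For females the log2 fold change was 0.51 (standard error 0.15, edgeR adjusted p = 0.144) and for males 0.57 (0.15, adjusted p = 0.132). Averaged over the sexes it was 0.54 (standard error 0.10, adjusted p = 0.00732), so *noe* rose in the average and passed in neither sex alone in this fit. DESeq2 called it in females (0.51, adjusted p = 0.00370) and in males (0.59, adjusted p = 4.11e-04). In edgeR with no filter on low counts it passed in males (adjusted p = 0.0488). It passed in females without either replicate of CSB males (adjusted p = 0.0162 and 0.0128), and in males without replicate 2 of CSB females (0.0479) or of CSB males (0.00146). Without replicate 1 of both CSB sexes the average was 0.48 (adjusted p = 0.0119), and without replicate 1 of *Obp56h*-/- males it was 0.52 and did not pass (adjusted p = 0.0570).

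The host gene *blot* had smaller log2 fold changes, 0.14 for females (edgeR adjusted p = 0.786) and 0.11 for males (adjusted p = 0.882). Within each sex, markers of neurons stood higher in the *Obp56h*-/- libraries, as *noe* did. Of 7 neuronal markers listed, 6 were found, and their summed level was 8165 and 9518 CPM in *Obp56h*-/- females, against 6693 and 8019.5 CPM in CSB females. In males it was 9839 and 9625 CPM in *Obp56h*-/- flies, against 8219 and 7705 CPM in CSB flies. All 6 had positive log2 fold changes in both sexes, with medians of 0.25 in females and 0.27 in males, and none was at 0 throughout. In females all 6 markers of glia, all 6 of photoreceptors and all 4 of hemocytes (blood cells) were also positive. So were 4509 of the 6722 genes with at least 100 reads in every library. In males 3, 4 and 3 of these markers and 3864 of those genes were positive. Of 6 muscle markers, 5 were positive and 1 negative in each sex, with medians of 0.09 in females and 0.19 in males. All 6 ovary and eggshell markers tested were negative in both sexes. The part of the neuronal shift in the level of *noe* was not tested. In RNA from whole heads, more cells of a type and more RNA per cell cannot be told apart.

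*Hsromega* (FBgn0001234, 3R, 21296127 to 21317836, plus strand) is the longest member, at 21710 bp, and its exon holds mir-4951. It was at 8239.9 and 10609 CPM in *Obp56h*-/- females, against 6135 and 7996 CPM in CSB females. Males had 12795 and 13684 CPM in *Obp56h*-/- flies, against 9667 and 8321 CPM in CSB flies. The genotypes did not overlap within either sex, but *Obp56h*-/- females overlapped CSB males. For females the log2 fold change was 0.42 (standard error 0.17, edgeR adjusted p = 0.376), for males 0.56 (0.17, adjusted p = 0.263) and for the average 0.49 (0.12, adjusted p = 0.0373). That call lies close to the threshold. It was lost without replicate 2 of *Obp56h*-/- females (0.41, adjusted p = 0.195), without either replicate of *Obp56h*-/- males (0.52 and 0.47, adjusted p = 0.0630 and 0.154) and without replicate 1 of CSB females (0.41, adjusted p = 0.160). Without replicate 1 of both CSB sexes it was 0.47 (adjusted p = 0.0527). In males alone it passed in DESeq2 (0.58, adjusted p = 0.0271) and, in edgeR, without replicate 1 of CSB males (0.72, adjusted p = 0.0165).

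No gene for the proteins that omega speckles hold passed the test. Of 13 listed genes of omega speckles and nuclear RNA-binding proteins, 12 were tested, and 0 passed in either direction in females, in males, in the average or in the interaction. None had an unadjusted p under 0.05 in any of these by edgeR, and other tools were not run on the list. Their median log2 fold change was 0.06 in females and 0.11 in males. *Hrb87F*, an hnRNP of the speckles, was at 106 and 104 CPM in *Obp56h*-/- females, against 92.3 and 111 CPM in CSB females. Its log2 fold change was 0.05 in females and 0.00 in males. *nonA*, another RNA-binding protein, had 0.20 in females and 0.17 in males.

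*cherub* (FBgn0262972, 3R, 11247631 to 11256123, minus strand) was the only member called between genotypes within a sex in the main edgeR fit described above. It was also among the least expressed. It was at 4.61 and 6.26 CPM in *Obp56h*-/- females, against 29.7 and 9.42 CPM in CSB females. In *Obp56h*-/- males it was at 11.4 and 9.33 CPM, against 21.2 and 14.8 CPM in CSB males. Within each sex both *Obp56h*-/- libraries were lower, and the CSB female replicates differed from each other by 1.65 on the log2 scale. *cherub* fell by 1.81 on the log2 scale in females (standard error 0.37, edgeR adjusted p = 0.0157), and its log2 fold change in the average was -1.30 (0.25, adjusted p = 0.00748). For males it was -0.79 (0.34, adjusted p = 0.496).

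The size of the difference in *cherub* depended on replicate 1 of CSB females, the library with the fewest reads. Without it the log2 fold change was -0.79 in females (edgeR adjusted p = 0.667) and -0.79 in the average (adjusted p = 0.0673), and neither passed. Without replicate 1 of both CSB sexes the values were -0.80 in females (adjusted p = 0.213) and -0.64 in the average (adjusted p = 0.0852). Without replicate 1 of *Obp56h*-/- females the call in females was also lost (-1.59, adjusted p = 0.135). The direction held in all of these, which the lack of overlap between genotypes in each sex made nearly certain. In the 2 CSB libraries with the highest *cherub*, summed markers of ovary and eggshell were 9.95 and 7.91 CPM and summed markers of testis were 9.67 and 7.75 CPM, while the other 6 libraries had 1.86 to 4.01 CPM and 1.55 to 3.50 CPM. Of these lists, 9 of 11 ovary genes and 10 of 10 testis genes were found. Their part in the *cherub* difference was not tested.

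**Figure D3:**
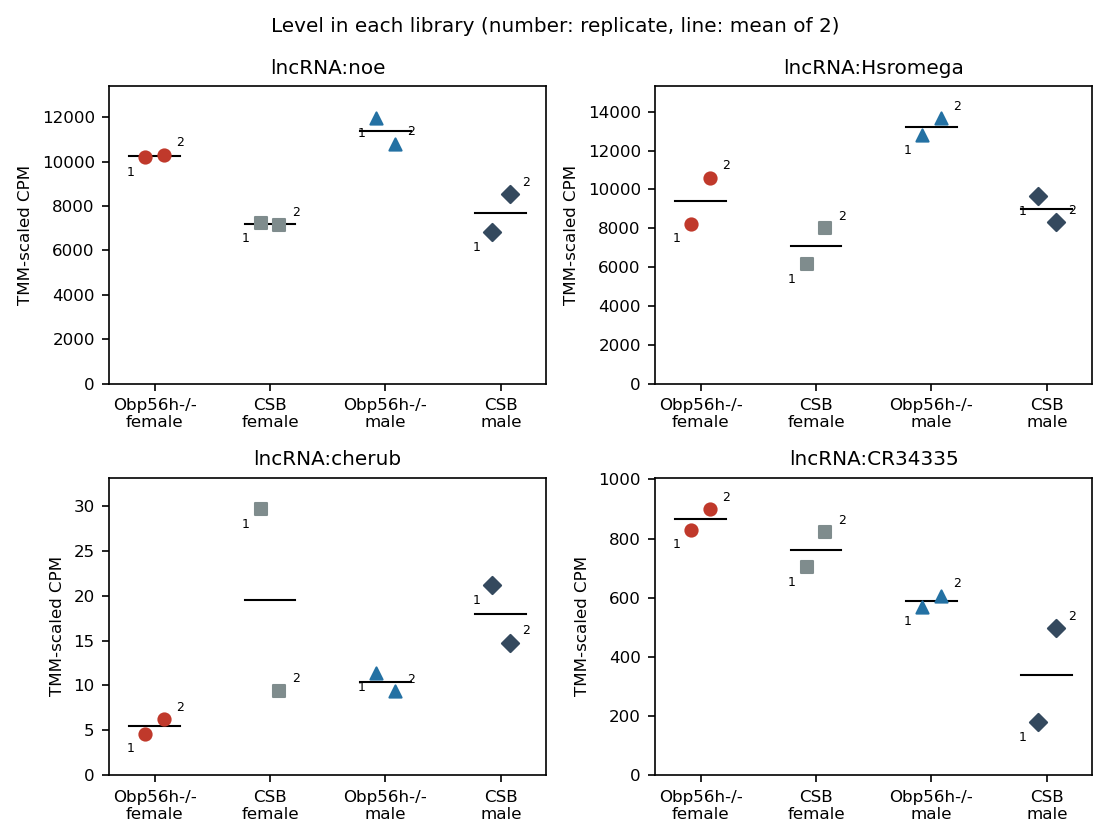
TMM-scaled CPM of *noe*, *Hsromega*, *cherub* and *CR34335* in each library, with replicates numbered and a line at the mean of 2. *noe* is at or above 10211 CPM in all *Obp56h*-/- libraries and at or below 8544 CPM in all CSB libraries, *cherub* is highest in replicate 1 of CSB females (29.7 CPM), and *CR34335* is lowest in replicate 1 of CSB males (179 CPM).

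Other members with groups that did not overlap in females did not pass the test. *CR44417*, a single exon of 831 bp in an intron of *Mapmodulin* on the opposite strand, was at 35.4 and 40.5 CPM in *Obp56h*-/- females, against 25.05 and 26.6 CPM in CSB females. Its log2 fold change was 0.55 (standard error 0.17, edgeR adjusted p = 0.217), and it passed without either replicate of CSB males (adjusted p = 0.0109 and 0.00979). In males it was at 30.4 and 24.0 CPM in *Obp56h*-/- flies, against 27.6 and 20.7 CPM in CSB flies, with overlapping groups. *CR40469*, the member with the highest level per kb, differed by 0.32 on the log2 scale in females, where replicate 1 of *Obp56h*-/- females (4255 CPM) stood above the other 3 libraries (3026 in *Obp56h*-/- and 2980.4 and 2871 in CSB). Without that library the difference was 0.06, and without replicate 2 of *Obp56h*-/- females 0.57. Below CSB in females were *CR31781* (-0.21) and *CR43650* (-0.21), the host of mir-8, and *CR45919* (-0.19), the host of mir-124. Leaving out a library at a time gave -0.32 to -0.13 for *CR31781*, -0.30 to -0.13 for *CR43650* and -0.27 to -0.08 for *CR45919*.

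In males, *CR34335*, *CR43493* and *CR45533* had log2 fold changes above 0.5 beside *noe* and *Hsromega*, and none of the 3 passed the test. *CR34335* was at 569.8 and 607 CPM in *Obp56h*-/- males, against 179 and 497 CPM in CSB males, a log2 fold change of 0.80 (standard error 0.28, edgeR adjusted p = 0.405). *CR43493* was at 16.2 and 12.6 CPM in *Obp56h*-/- males, against 6.21 and 11.7 CPM in CSB males (0.68, standard error 0.24, adjusted p = 0.407). In both, replicate 1 of CSB males was the low library, and without it the log2 fold changes were 0.30 for *CR34335* and 0.35 for *CR43493* (adjusted p = 0.728 and 0.767). *CR45533* was at 15.4 and 18.6 CPM in *Obp56h*-/- males, against 10.9 and 12.5 CPM in CSB males (0.54, standard error 0.18, adjusted p = 0.395). On the lower side in males were *cherub*, *CR43314* (-0.35), *CR44779* (-0.26), *CR46003* (-0.24) and *CR46004* (-0.20). None of these passed in the main edgeR fit, while *cherub* passed with no filter on low counts. As each library was left out in turn, *cherub* was at -1.001 to -0.46, *CR43314* at -0.54 to -0.03, *CR44779* at -0.38 to -0.14, *CR46003* at -0.30 to -0.09 and *CR46004* at -0.28 to -0.12. The values nearest 0 came without replicate 1 of CSB males for *cherub* and *CR43314*, and without replicate 2 of *Obp56h*-/- males for *CR44779*. With replicate 2 of CSB males left out, which leaves the low library as the only CSB male and takes the spread from the other groups alone, calls over all genes in males numbered 769, against 68 with all libraries. There 9 members passed, among them *CR34335* (1.75, adjusted p = 2.06e-14), *CR43493* (1.24, adjusted p = 6.96e-05), *noe*, *cherub*, *CR45533* and *CR43314*.

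A group of 15 members held 19 miRNA genes on their own strand, 13 of the hosts within an exon. Reads on a host measure the primary or unprocessed transcript, not the mature miRNA. In females 10 hosts had positive and 5 negative log2 fold changes, with a median of 0.09 and a range of -0.21 to 0.49, and 0 passed (2 had an unadjusted p under 0.05 by edgeR). In males 11 were positive and 4 negative, with a median of 0.10 and a range of -0.35 to 0.56, and 0 passed by edgeR (2 had an unadjusted p under 0.05), while DESeq2 called *Hsromega*. In the average *Hsromega* was the only host that passed by edgeR. The 40 members that host no miRNA had medians of 0.06 in females and 0.08 in males.

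**Figure D4:**
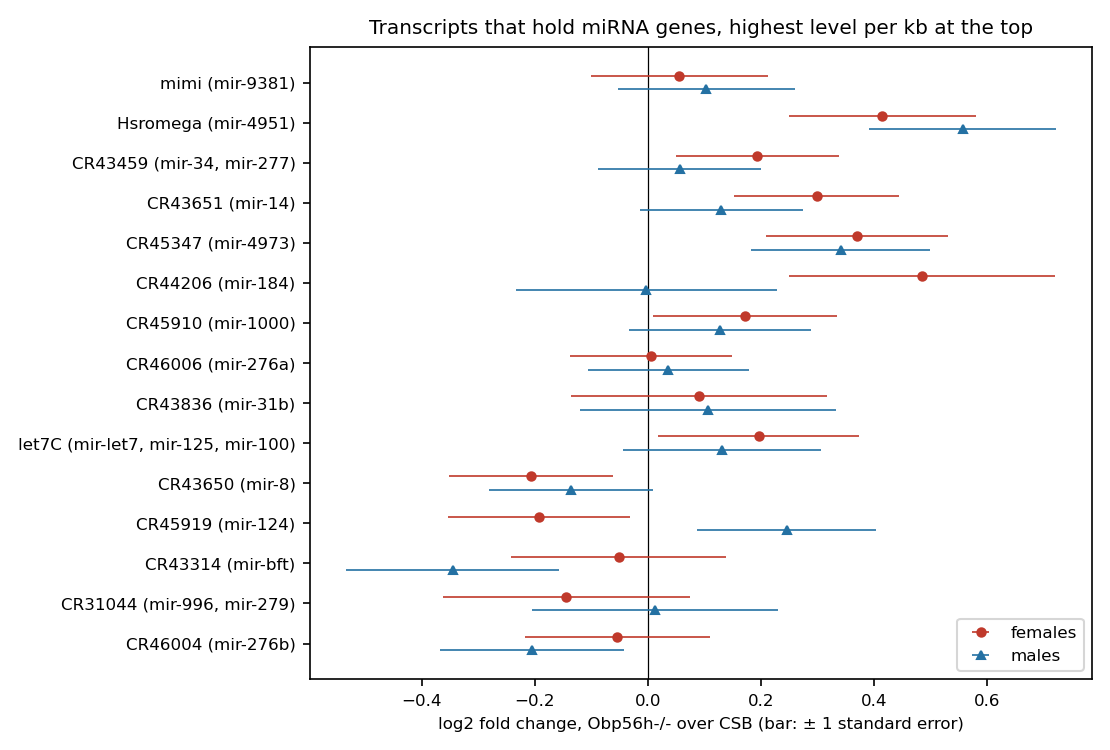
log2 fold change, *Obp56h*-/- over CSB, of the 15 lncRNAs that hold miRNA genes, in females and in males, with bars of 1 standard error and the host with the highest level per kb at the top. Values run from -0.35 (*CR43314*, males) to 0.56 (*Hsromega*, males), and 0 hosts passed the adjusted threshold within a sex by edgeR.

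Among hosts of miRNAs with known roles in neurons and ageing, *CR43459* carries mir-34, known for its role in the ageing brain, and mir-277, which acts on the breakdown of branched-chain amino acids. *CR43459* was at 304 and 347 CPM in *Obp56h*-/- females, against 253 and 315 CPM in CSB females. In males it was at 347 and 332 CPM in *Obp56h*-/- flies, against 331 and 322 CPM in CSB flies. The female groups overlapped and the log2 fold changes were 0.19 and 0.06. *CR45919*, the host of the neuronal mir-124, was the only host whose genotypes were apart in opposite directions in the sexes. It was at 19.2 and 22.04 CPM in *Obp56h*-/- females, against 22.3 and 24.6 CPM in CSB females, and at 24.3 and 25.5 CPM in *Obp56h*-/- males, against 19.9 and 22.1 CPM in CSB males. The groups did not overlap in either sex, and the interaction of 0.44 did not pass (standard error 0.23, edgeR adjusted p = 1.00). *CR46006*, host of mir-276a, which acts in olfactory memory, had 0.01 and 0.04, and *CR45910*, host of mir-1000, which acts on the vesicular glutamate transporter, had 0.17 and 0.13.

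Another 3 hosts had genotypes apart in the same direction in both sexes and did not pass by edgeR. Such separation was found, higher and lower, in 7.21% and 9.45% of all genes tested. For genes with at least 100 reads in every library the shares were 12.3% and 4.12%. *CR43651*, the host of mir-14, which acts in cell death and fat metabolism, was at 40.4 and 42.7 CPM in *Obp56h*-/- females, against 34.9 and 32.7 CPM in CSB females. In males *CR43651* was at 39.3 and 37.1 CPM in *Obp56h*-/- flies, against 36.4 and 33.4 CPM in CSB flies. The groups were apart in both sexes, with log2 fold changes of 0.30 and 0.13 that did not pass (edgeR adjusted p = 0.470 and 0.828). *CR43650*, the host of mir-8, a miRNA of growth and insulin signalling, was at 49.2 and 50.5 CPM in *Obp56h*-/- females, against 60.4 and 54.8 CPM in CSB females. It was at 44.0 and 44.8 CPM in *Obp56h*-/- males, against 45.4 and 52.2 CPM in CSB males, again apart in both sexes. *CR45347*, which holds mir-4973, had log2 fold changes of 0.37 and 0.34, with an average of 0.36 (adjusted p = 0.113).

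The remaining hosts had groups that overlapped in at least 1 sex. *let7C* (FBgn0263049, 2L, 18455717 to 18473132, plus strand), which holds let-7, mir-100 and mir-125, was at 16.6 and 17.2 CPM in *Obp56h*-/- females, against 16.7 and 13.1 CPM in CSB females. In males *let7C* was at 18.6 and 15.8 CPM in *Obp56h*-/- flies, against 15.5 and 15.8 CPM in CSB flies. *CR44206*, the host of mir-184, known from egg development, was at 26.8 and 40.1 CPM in *Obp56h*-/- females, against 27.2 and 20.9 CPM in CSB females (log2 fold change 0.49, edgeR adjusted p = 0.470). Its log2 fold change in males was 0.00. *CR31044*, with mir-279 and mir-996, had -0.14 and 0.01. *CR43314*, with mir-bft, which protects sensory bristles, had -0.05 and -0.35. *CR46004*, with mir-276b, *CR43836*, with mir-31b in an intron, and *mimi*, which mir-9381 overlaps in part, had values between -0.20 and 0.11.

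The interaction tests whether the effect of genotype differs between the sexes. Of the 55, 0 passed, where 0.0369% of all genes tested and 0.0149% of those with at least 100 reads did, and 0 passed in DESeq2. At an unadjusted p under 0.05 edgeR found 1 member, *CR40469*, with an interaction of -0.67 (standard error 0.31, adjusted p = 1.00). It was at 2406 and 3012 CPM in *Obp56h*-/- males, against 4455 and 2484 CPM in CSB males. *cherub* had the largest interaction by size, 1.02 (standard error 0.50, edgeR adjusted p = 1.00).

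The sexes were also compared within each genotype. For males against females, 0 of 55 members passed in *Obp56h*-/- flies, where 3.19% of all genes tested and 4.7% of those with at least 100 reads did. By edgeR 7 members had an unadjusted p under 0.05, as did 1554 of the 13536 genes tested and 1078 of the 6722 with at least 100 reads. DESeq2 called 1 member, a count given without its share over all genes. In CSB flies 2 members passed, *CR34335* and *CR33963*, both lower in males, where 2.9% of all genes and 4.22% of those with at least 100 reads passed. Both male libraries lay above both female libraries of *Obp56h*-/- flies in 19 members (22.5% of all genes, 26.2% of those with at least 100 reads) and below them in 11 (25.5% and 30.1%). For CSB flies these counts were 7 above (14.9% and 18%) and 6 below (15.7% and 17.9%). *roX1*, part of the dosage compensation of the male X chromosome, was among the genes left out of the members. It had 183 reads in its lowest library and 69739 in its highest. Since *roX1* met the read minimum, these counts between the sexes are for a set from which it had been removed.

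*CR34335* (FBgn0267910, X, 3545750 to 3546110, minus strand) is a single exon of 361 bp in an intron of *DIP-alpha*, a gene of cell-surface recognition in neurons on the same strand. In CSB flies it was at 179 and 497 CPM in males, against 704 and 822 CPM in females. In *Obp56h*-/- flies it was at 569.8 and 607 CPM in males, against 831 and 899 CPM in females. Males were below females in both genotypes, with no overlap. *CR34335* fell by 1.18 on the log2 scale in CSB males (standard error 0.28, edgeR adjusted p = 0.0283), and in *Obp56h*-/- flies the value was -0.55 (0.28, adjusted p = 0.484). The difference between these was not called (interaction 0.62, standard error 0.40, edgeR adjusted p = 1.00). The call in CSB was lost without either replicate of CSB females (-1.29 and -1.13, adjusted p = 0.134 and 0.137), with the value at -0.67 without replicate 1 of CSB males and -2.12 without replicate 2.

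*CR33963* (FBgn0053963, X, 12659462 to 12660632, plus strand) shares 15.9% of its sequence with an exon of *Tis11*, a gene of messenger RNA decay on the same strand. In CSB flies it was at 10.3 and 8.31 CPM in males, against 14.6 and 16.4 CPM in females. In *Obp56h*-/- flies it was at 11.5 and 13.1 CPM in males, against 15.3 and 15.9 CPM in females. Males were lower in both genotypes without overlap. *CR33963* fell by 0.75 on the log2 scale in CSB males (standard error 0.19, edgeR adjusted p = 0.0340), and the value was -0.34 in *Obp56h*-/- flies (0.18, adjusted p = 0.519). Leaving out a library at a time gave -0.96 to -0.63 and adjusted p of 0.00176 to 0.175. The call was lost without either replicate of *Obp56h*-/- females, replicate 2 of *Obp56h*-/- males, either replicate of CSB females or replicate 2 of CSB males.

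The 13 members on X and the 42 on the autosomes were set side by side, since the X is present in a single copy in males. For males over females, the median log2 fold change of X members was -0.02 in *Obp56h*-/- flies and -0.13 in CSB flies, beside 0.08 and 0.03 for autosomal members. Over all genes with at least 100 reads in every library the medians were -0.08 and -0.05 for X genes, beside 0.00 and 0.05 for autosomal genes. The X members ranged from -0.57 to 0.44 in *Obp56h*-/- flies and from -1.18 to 0.60 in CSB flies. At the lower end in *Obp56h*-/- flies was *CR44779*, at 11.4 and 9.60 CPM in males, against 15.5 and 15.7 CPM in females (edgeR adjusted p = 0.107). At the upper end in CSB flies was *CR44832*, at 26.3 and 19.8 CPM in males, against 16.3 and 14.2 CPM in females (adjusted p = 0.118). Each of these 2 members differed in the same direction in the other genotype, by -0.31 for *CR44779* and 0.18 for *CR44832*. *Hsromega* was higher in males in both genotypes without overlap, by 0.49 in *Obp56h*-/- flies and 0.35 in CSB flies, and did not pass in either (adjusted p = 0.160 and 0.483). In males, summed markers of the head fat body were 302 and 342 CPM in *Obp56h*-/- flies and 1669.5 and 205 CPM in CSB flies, where females had 45466 to 53406 CPM. The list includes 3 yolk protein genes, and its part in the sex differences was not tested.

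Protein-coding genes next to the members were read from the same fit. A nearest coding gene that was tested was found for 50 members, and 1 of these neighbours passed in females, 1 in males and 1 in the average. Of all genes tested, 1.03%, 0.502% and 1.93% passed in these contrasts, so the count does not set the neighbours apart. In each contrast the neighbour that passed was *CG11368*, which lies 2089 bp from *CR45533*. *CG11368* was at 221 and 242 CPM in *Obp56h*-/- females, against 132 and 124 CPM in CSB females, and at 227 and 179 CPM in *Obp56h*-/- males, against 104 and 132 CPM in CSB males. It rose by log2 fold changes of 0.86 in females (standard error 0.16, edgeR adjusted p = 0.00825) and 0.79 in males (0.16, adjusted p = 0.0245), while *CR45533* itself had 0.18 and 0.54 and did not pass. *CG5214*, 768 bp from *cherub*, had 0.32 and 0.23, and *aus*, 463 bp from *Hsromega*, had 0.12 and 0.20, and neither passed. *DIP-alpha*, around *CR34335*, had -0.22 in females and 0.14 in males.

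The position of a member relative to other genes went with small differences only. The 14 members within introns had median log2 fold changes of 0.16 in females and 0.13 in males, the 27 without overlap 0.06 and 0.10, the 8 with same-strand overlap 0.04 and 0.09, and the 6 with opposite-strand overlap 0.04 and -0.08. *CR46003*, the member with the lowest level per kb, is antisense to *CR46004*, the host of mir-276b, over part of its length. *CR46003* was at 23.1 and 26.0 CPM in *Obp56h*-/- females, against 47.9 and 22.7 CPM in CSB females. Replicate 1 of CSB females was again the high library, and *CR46004* was at 20.4 CPM there and at 16.03 to 20.03 CPM in the other 7.

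Genes that process or degrade noncoding RNA showed no call in any contrast of genotype. Of 14 listed genes of the nuclear exosome, which trims and degrades nuclear RNA, 12 were tested and 0 passed by edgeR in either direction, with median log2 fold changes of -0.16 in females and -0.03 in males and 0 and 0 genes at an unadjusted p under 0.05. Of 12 listed gene names of nonsense-mediated decay, which include synonyms, 10 were tested and 0 passed. Their medians were 0.04 and -0.06, with 0 and 1 genes at an unadjusted p under 0.05. The Integrator complex cleaves nascent noncoding transcripts. Of its 17 listed gene names, which include synonyms, 13 were tested and 0 passed. Their medians were -0.04 and -0.05, with 0 and 1 genes at an unadjusted p under 0.05. The gene with the lowest p among these was *defl*, with -0.20 in females and -0.81 in males (edgeR adjusted p = 0.295).

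Replicates of a group differed more in CSB than in *Obp56h*-/- flies. The median absolute log2 ratio of replicate 1 to replicate 2 over the 55 members was 0.17 in *Obp56h*-/- females, against 0.25 in CSB females, and 0.13 in *Obp56h*-/- males, against 0.22 in CSB males. Over the 6722 genes with at least 100 reads in every library it was 0.14 against 0.20 in females and 0.10 against 0.22 in males. The wider spread in CSB was thus not particular to the members. Replicates differed by more than 2-fold in 0 members in either sex of *Obp56h*-/- flies and in 2 members in each sex of CSB flies. Of the 6722 genes, 6 in females and 8 in males of *Obp56h*-/- flies did so, against 25 and 51 in CSB flies. The members were *cherub* (1.65) and *CR46003* in CSB females, and *CR34335* (-1.48) and *CR45979* (1.40) in CSB males. *CR45979*, which lies in an intron of *sfl*, was at 13.2 and 5.01 CPM in CSB males and between 8.49 and 9.39 CPM in the other 6 libraries.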

How the data were processed

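Total RNA from heads was sequenced in 8 libraries. Per the study's methods, reads were trimmed, filtered for quality and checked for ribosomal RNA, GSNAP placed them on release 6.13 of the genome, and Subread assigned the unique alignments to genes. The values used are the raw read counts per gene that the authors deposited, with gene lengths, not normalized, and 0 columns of values were left out. Groups were taken from the labels. Symbols were found for 17287 gene identifiers. The 203 identifiers without a symbol, 94 of which had at least 100 reads in every library, could not be members. Positions came from Ensembl release 115, where 17288 identifiers were found and 98.6% of them had the deposited length (53 of the 55 members did).

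The main test was that of edgeR 4.0.16 under R 4.3.3 (filterByExpr with a smallest count of 10, TMM, glmQLFit and glmQLFTest, all 8 libraries in 4 groups). This is not the likelihood ratio test on GeTMM values (counts per kb, scaled by TMM) of the study's methods, which was an alternative. A total of 3 reads corresponds to 0.122 to 0.276 CPM, counting error alone. Replicates were not duplicates: a chi-square over genes gave 9.33 to 41.1 per degree of freedom. Python 3.11.15 with matplotlib 3.10.9 made the plots.

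The members and all gene lists were chosen with earlier results of these data known, so counts over members are a description and no test of the list was run. Members named are the 10 with the highest level per kb, those called in a contrast, the 5 largest differences in each direction and sex among those whose groups did not overlap, described lncRNAs, miRNA hosts and the genes at the edge of the read minimum. Other members and neighbours were named after their values were seen. The alternatives were GeTMM with a likelihood ratio test, DESeq2 1.42.0, RLE factors, library size alone, no filter, at least 10 reads in every library, the replicate number as a block, replicate 1 of both CSB sexes left out, each sex fitted on its own, and each library left out in turn. No sequences were read, since no genome sequence was used here.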

Additional observations from a re-analysis of the deposited data

How the results depend on the processing

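Set against its value under another setting, a named member's log2 fold change stayed on the same side of the threshold in 352 comparisons, passed only under the other setting in 22, no longer passed in 29 and changed direction in 0. Most of the results counted were not calls in the main test, and only a call could stop passing. The 29 thus fell on the few calls, and the 352 are no measure of how stable those calls were. The results counted were of members whose groups did not overlap, where leaving out a library can hardly reverse the sign. The 0 changes of direction are thus no measure of stability either. The causes of the differences below were not tested. In females 1 member passed. The count was 0 with GeTMM and a likelihood ratio test, with library size alone, with at least 10 reads in every library and without replicate 1 of both CSB sexes, and 2 with DESeq2, with no filter and with each sex fitted on its own. In males 0 members passed, against 2 with DESeq2, 4 with no filter (*CR34335*, *CR43493*, *noe* and *cherub*) and 1 with the replicate block (*CR34335*, adjusted p = 0.0393). In the average 3 passed, against 6 with no filter and 1 without replicate 1 of both CSB sexes. For males against females in *Obp56h*-/- flies 0 passed, against 1 with DESeq2, 1 with library size alone, 2 with no filter and 5 without replicate 1 of both CSB sexes. In CSB flies 2 passed, against 1 with GeTMM, 1 with DESeq2 and 0 with library size alone. These counts stand without the share of all genes called under each setting, so they do not set members apart from other genes. Leaving out a library at a time gave 0 to 3 in females, 0 to 9 in males, 1 to 9 in the average, 0 to 2 in the interaction, 0 to 5 between the sexes in *Obp56h*-/- flies and 0 to 6 in CSB flies. The 9 in males and in the average, and the 6, came without replicate 2 of CSB males.

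The call of *cherub* in females was lost with GeTMM (adjusted p = 0.159), with library size alone (0.0760) and with at least 10 reads in every library (0.0555). *Hsromega* in the average was lost with library size alone (0.0575) and with at least 10 reads in every library (0.122). *CR34335* between CSB sexes was lost with GeTMM (0.0789), DESeq2 (0.177) and library size alone (0.0849). Over all genes, the calls in females numbered 140, and between 91 (library size alone) and 416 (no filter) over the alternatives that kept all libraries. In males they were 68, and between 28 (each sex on its own) and 279 (no filter). In the average they were 261, and between 166 (at least 10 reads in every library) and 959 (no filter). In the interaction they were 5, and between 1 (at least 10 reads in every library) and 70 (no filter). Library size alone moved the median log2 fold change of all genes in females to -0.14, against -0.03 with TMM, and that of members to -0.06, against 0.07.

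The replicate numbers of the labels did not pair the libraries: between groups, the deviations of same-numbered libraries correlated between -0.0954 and 0.0708, except for CSB females and CSB males (0.464). With the replicate block, 1 member passed in females, 1 in males, 4 in the average and 2 between CSB sexes. The 2 replicates a group, and the 10127941 reads of CSB females replicate 1, limit what can be seen.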
